A study of Mus musculus with 25 samples.

Results

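Histone genes were measured in RNA from mouse Achilles tendon. The set held every gene whose symbol in the deposited tables began with H1f, H2ac, H2bc, H3c or H4c and ended in a number, which gave 61 genes of 55487. They are 10 genes of linker histones (H1) and 15 H2A, 14 H2B, 12 H3 and 10 H4 genes of core histones. The H2A member H2ac14 is annotated as an unprocessed pseudogene. All animals were 3 months of age. The 4 groups were AMPKcKO runners (6 libraries), wild type runners (6), AMPKcKO mice at cage activity (6) and wild type mice at cage activity (7). Runners had a wheel. AMPKcKO, written cKO here, is a conditional knockout, and the title of the series names AMPKα1, the kinase subunit encoded by Prkaa1. Each group held male and female libraries, 12 male and 13 female in all. The Cre driver of the knockout, and whether each library came from 1 animal, are not given in the sources used here, so the p-values below measure only the spread between these libraries, which may be technical.

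Replication histones package newly made DNA. Their genes lie in clusters of many near-identical copies, are switched on in S phase, and give short mRNAs without introns that end in a stem-loop in place of a poly(A) tail. The stem-loop is bound by SLBP, which guides 3′ processing and translation of the mRNA. A smaller number of histone genes are used outside S phase. H1f0 encodes a linker histone that builds up in cells that have stopped dividing, and H1f10 encodes the variant H1X. H1f6, H1f7 and H1f8 are linker histones of germ cells. Most resident cells of an adult tendon are not dividing. AMPK is a kinase that responds to low cellular energy, and the comparisons below ask how histone transcripts differ with its loss, with running and with both.

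Libraries held between 13193228 and 45724244 counts, so the shallowest was also the least precise for rare genes. CPM are counts scaled to the size of a library after TMM scaling between libraries. Only CPM of eGFP are scaled to the unadjusted total of a library. The targeted gene, Prkaa1, had 16.2, 18.7 and 22.6 CPM (lowest, median and highest library) in cKO runners, against 15.6, 23.4 and 31.1 CPM in wild type (WT) runners. In cage mice the values were 13.9, 17.8 and 21.2 CPM in cKO tendons, against 13.4, 23.1 and 31.2 CPM in WT tendons. The groups overlapped, and the log2 fold change over both activities was -0.36 ± 0.12 SE (adjusted p = 0.981). In RNA from whole tissue, fewer cells of a type cannot be told apart from less RNA per cell. Of a list of tenocyte genes 15 of 15 had enough counts to test, and they summed to 6449 to 27496 CPM. Skeletal muscle transcripts made up 4.29 to 21.4% of counts. Among cKO libraries, cage female replicate 3 had no Cre count (the others had 7 to 42), and among WT libraries, running male replicate 2 carried 119 CPM of eGFP, with at most 0.0219 CPM in the others. WT running female replicate 2 and WT running male replicate 3 stood apart on a principal component. The names of cKO cage male replicate 3 and WT cage female replicate 4, the shallowest library, had another prefix than the rest. What the prefix stands for is not given in the sources used here, and it falls only on cage libraries. The counts of called histone genes given below were 0 with and without these libraries, and values that moved are given beside the result.

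The 3′ processing signal could be read from the annotated GRCm38 transcripts of several of the most abundant members and of those with the smallest p-values. Each stretch is printed 5′ to 3′ as DNA, with the 16 bases of the stem-loop in capitals.
H1f2: caaaaGGCTCTTTTCAGAGCCaccactc
H2ac18: aaaaaGGCTCTTTTCAGAGCCacccact
H2ac20: aaaaaGGCTCTTTTTAGAGCCaccaaat
H2ac7: acaaaGGCTCTTTTCAGAGCCatccact
H2bc6: ccaaaGGCTCTTTTCAGAGCCacccaac
H3c6: aaaacGGCTCTTTTAAGAGCCacctcca
H4c3: caaaaGGCCCTTTTCAGGGCCacccaca
H4c4: ccaaaGGCCCTTTTCAGGGCCactacct
H4c8: ccaaaGGCCCTTTTCAGGGCCgcccaca
In these members the stem opened with GGCTCT in H1, H2A, H2B and H3 mRNAs and with GGCCCT in the H4 mRNAs. The loop departed from the common form in H2ac20 and in H3c6.

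Gene models differed in where they ended relative to this signal. Of the 61 members, 16 had a model that ended within 100 bases of the stem-loop. In 19 others the model ran on for more than 100 bases past it, by 840 bases in H1f2, 1153 in H1f4 and 770 in H4c4. The remaining 26 models held no match to the stem-loop with up to 1 mismatch, among them H1f0, H1f10, H2bc4, H2bc18, H2bc21 and H3c13. Models that ran on carried 44.6% of the summed CPM, models that ended at the stem-loop 29.0%, and models with no match 26.4%. Whether libraries were selected for poly(A) tails is not given in the sources used here.

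Promoter windows from RefSeq, 250 bases before to 50 bases after the gene start in GRCm38.p6, were matched for 55 of the 61 members. The letters TATAAA were present on the strand of the gene in 26 of these 55 windows (47.3%), against 8.32% of all 32851 windows. The letters CCAAT (or ATTGG on the other strand), the core of the NF-Y binding motif, were present in 46 (83.6%), against 37.4% of all windows. Every matched H2A, H2B and H3 window held them, whereas 3 of 9 H4 windows did. The octamer ATGCAAAT (or ATTTGCAT), the motif read by octamer-binding factors, was present in 13 windows (23.6%), against 1.74% of all windows. It was found in 7 of 12 H2B and 6 of 14 H2A windows and in no H1, H3 or H4 window.

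Stretches upstream of 3 members show this range, with motif matches in capitals and each printed on the strand of its gene. The stretch of H2ac20 (chr3:96220881-96221118, minus strand) is all 238 bases that separate its start from that of H2bc21 on the opposite strand, so both genes share it. The stretches of H1f2 (chr13:23738557-23738806) and H4c8 (chr13:23530794-23531043) are on the plus strand.
H2ac20: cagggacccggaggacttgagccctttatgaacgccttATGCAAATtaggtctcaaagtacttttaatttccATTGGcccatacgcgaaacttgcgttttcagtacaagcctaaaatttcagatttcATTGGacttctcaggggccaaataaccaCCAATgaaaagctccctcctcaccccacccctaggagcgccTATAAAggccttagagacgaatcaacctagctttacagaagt
H1f2: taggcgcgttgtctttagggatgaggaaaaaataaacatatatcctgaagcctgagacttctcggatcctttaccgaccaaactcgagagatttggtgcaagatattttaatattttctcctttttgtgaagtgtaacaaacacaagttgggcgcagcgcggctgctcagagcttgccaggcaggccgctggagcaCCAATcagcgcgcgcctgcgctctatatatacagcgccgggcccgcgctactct
H4c8: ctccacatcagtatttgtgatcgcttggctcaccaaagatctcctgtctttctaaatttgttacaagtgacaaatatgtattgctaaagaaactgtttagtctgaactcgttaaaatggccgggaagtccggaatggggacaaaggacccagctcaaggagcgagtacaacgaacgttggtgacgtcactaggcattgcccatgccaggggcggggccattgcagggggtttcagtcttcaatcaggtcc
The stretch of H2ac20 held 1 octamer, 3 CCAAT matches and 1 TATAAA. That of H1f2 held 1 CCAAT match, and that of H4c8 none of the 3 motifs.

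Transcripts of a few members made up most of the H1, H2A and H2B signal. Levels per length are given as the deposited FPKM (fragments scaled by transcript length and library depth), as mean ± SD over 25 libraries. H2ac18 had the highest level of the 61 at 247 ± 83.6 FPKM, above 98.6% of the tested genes. H1f2, a linker histone of dividing and resting somatic cells, followed at 94.3 ± 23.9 FPKM, and H2ac19 at 72.2 ± 24.8 FPKM. H4c8 led the H4 genes at 57.0 ± 11.1 FPKM, and H2bc4 the H2B genes at 33.4 ± 6.45 FPKM. The variant gene H1f0 had 38.5 ± 7.42 FPKM and H1f10 had 2.46 ± 1.71 FPKM. The H3 class had the lowest leading gene, H3c13 at 15.7 ± 8.84 FPKM. FPKM of members with short models, such as H4c12 at 9.03 ± 4.27 FPKM from a median of 19 counts, rests on a small effective length and is less certain than the rank shows.

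**Figure D1:**
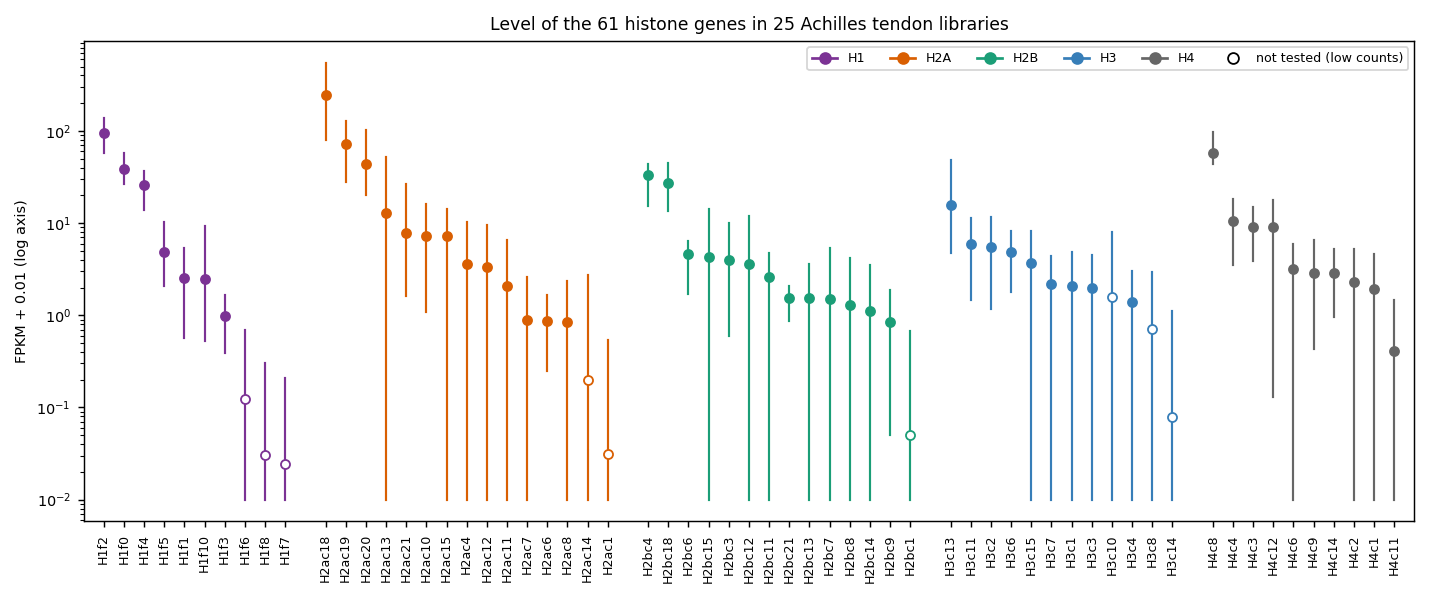
Level of each of the 61 histone genes as deposited FPKM plus 0.01 on a log axis. Points are means and lines the lowest to highest of 25 libraries, colours mark the class, and open points mark the 9 genes with too few counts to test. H2ac18 stands highest at a mean of 247 FPKM, and the germ cell genes H1f6, H1f7 and H1f8 lie at the bottom of the H1 genes.

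Histone genes used throughout the cell cycle gave a scale for these levels. Outside the symbol pattern, H3f3a and H3f3b, which encode the replacement variant H3.3, had 124 ± 16.6 and 72.3 ± 21.8 FPKM. Both lay above every H3 gene of the set. Macroh2a1, a large H2A variant, had 27.7 ± 6.0 FPKM, and H2az1, which encodes H2A.Z, had 17.4 ± 5.79 FPKM. The division marker Mki67 had 1.40 ± 0.568 FPKM.

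Within H1, H1f2 held 49.2% of the summed CPM on average, H1f0 28.1% and H1f4 17.6%. In the H2A class, H2ac18 and H2ac19 together held between 73.5 and 90.5%, with a mean of 82.6%. H2bc4 held 56.6% of H2B, with 37.0 to 69.9% over the libraries. H4c8 held 38.1% and H4c4 25.6% of H4. H3 was the most evenly divided, since its first gene, H3c13, held 21%. By position, the 47 members on chromosome 13 held 56.7% of the summed CPM and the 10 on chromosome 3 held 28.5%. H1f0 and H1f7 on chromosome 15 held 14.3%, nearly all of it H1f0, and H1f10 and H1f8 on chromosome 6 held 0.477%.

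Near-identical copies limit how far single members can be read. Windows of 50 bases were compared across all annotated transcripts. All windows of the H2ac19 transcript recurred in another gene, as did 89.4% of those of H2ac18. The share of the pair assigned to H2ac18 lay between 42.0 and 96.0% over the libraries, whereas their sum had 88.8, 98.1 and 122 CPM in cKO runners, against 91.0, 111 and 128 CPM in WT runners. In cage mice the sum had 83.5, 108 and 133 CPM in cKO tendons, against 77.5, 97.3 and 147 CPM in WT tendons. The groups overlapped throughout. H2bc6 and H1f4 overlap on the minus strand of chromosome 13, and their reads cannot be told apart there. H2ac18 overlaps Gm20634 on its own strand and Gm20633 and Gm47313 on the other, and most other H2A genes, H1f0 and H1f10 overlap an antisense gene. The strand of the libraries is not given in the sources used here, so sense and antisense reads cannot be told apart.

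In 10 pairs an H2A gene stands head to head with an H2B gene, with 176 to 306 bases between their starts. Partners differed in level. H2bc4 averaged 31.0 CPM beside 1.87 CPM for H2ac6, and H2ac20 averaged 12.1 CPM beside 3.71 CPM for H2bc21. In the pair H2ac15 and H2bc15 the averages were 1.15 and 0.645 CPM. In the 8 pairs with both partners tested, the fold changes of the partners had the same sign in 5 pairs for cKO against WT at cage activity, in 4 between runners and in 3 over both activities. For running against cage the count was 3 in WT, 6 in cKO and 3 over both genotypes. It was 4 for the interaction and 3 for male against female.

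Summed over a class, levels overlapped between all 4 groups. H1 genes summed to 238, 266 and 286 CPM in cKO runners, against 213, 263 and 308 CPM in WT runners, and to 186, 252 and 287 CPM in cKO cage mice, against 187, 231 and 273 CPM in WT cage mice. H2B genes summed to 30.2, 47.8 and 64.0 CPM in cKO runners, against 53.5, 59.2 and 67.6 CPM in WT runners. In cage mice the H2B sum was 52.3, 55.2 and 73.4 CPM in cKO tendons, against 38.6, 49.7 and 59.3 CPM in WT tendons. The cKO median of the H2B sum thus lay below the WT median in runners and above it in cage mice. H4 genes summed to 29.1, 35 and 41.3 CPM in cKO runners, against 31.2, 36.6 and 41.9 CPM in WT runners. In cage mice the H4 sum was 28.3, 37.9 and 46 CPM in cKO tendons, against 27.1, 32.6 and 39.3 CPM in WT tendons. No test was made of these sums.

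**Figure D2:**
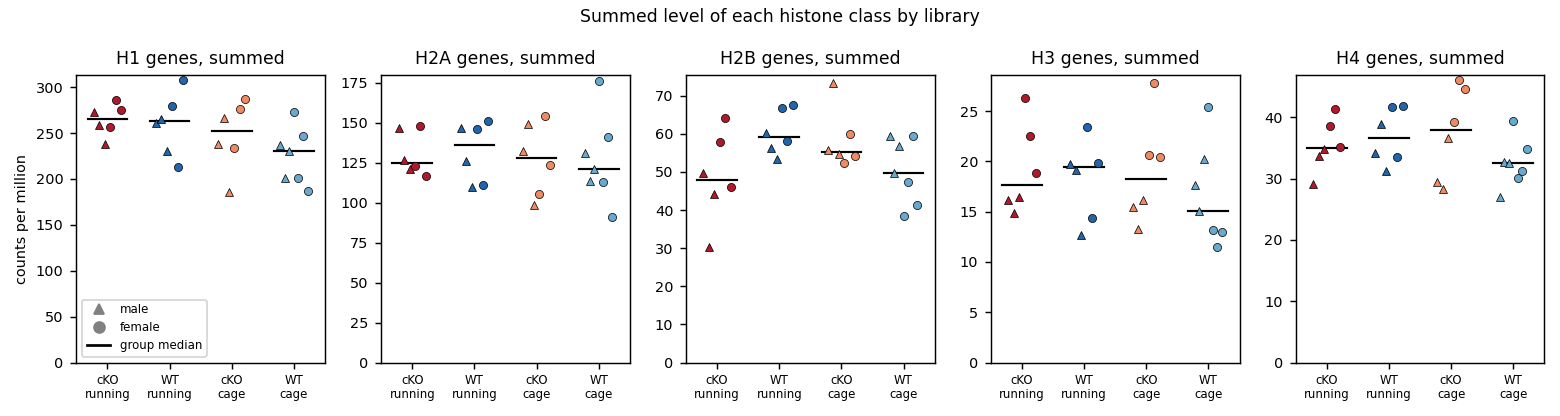
Summed CPM of the H1, H2A, H2B, H3 and H4 genes in each library, by group. Triangles are male and circles female libraries, and bars are group medians. The groups overlap in every panel, and the H2B median of cKO runners, 47.8 CPM, is the lowest of the 4.

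Low counts left 52 of the 61 members for testing, out of 19155 genes tested. The 9 that were not tested were the germ cell genes H1f6, H1f7 and H1f8, and H2ac1, H2ac14, H2bc1, H3c8, H3c10 and H3c14. Fits were made with edgeR's quasi-likelihood test on all 25 libraries with sex as a term, and p-values were adjusted by Benjamini-Hochberg over all genes tested. The threshold for a call was an adjusted p of 0.05, and fold changes are log2 values ± SE. No histone gene was called in any of the 8 comparisons below. DESeq2 and limma on log2 FPKM also called none, and limma-voom with library weights called H1f2 in 1 comparison. In that comparison limma-voom called 912 of all 19155 genes.

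In cage tendons, most tested histone genes lay slightly higher in cKO than in WT, without passing the test. Of the 52, 0 were called, as were 0% of all genes. The fold change was positive in 39 of 52, with a median of 0.19 on the log2 scale, against 50.5% of all genes. All 7 H1 genes, 11 of 13 H2B, 7 of 9 H3 and 8 of 10 H4 genes were positive, but 6 of 13 H2A genes. H4c3, an H4 gene on chromosome 13 (chr13:23697635-23698454, minus strand), had the smallest p, and was the 1 histone gene with an unadjusted p under 0.05, which 1.13% of all genes had. It had 3.51, 6.66 and 7.69 CPM in cKO cage tendons, against 2.46, 3.35 and 5.17 CPM in WT cage tendons. Of the 6 cKO libraries 4 lay above all WT libraries, and the groups overlapped. Its log2 fold change was 0.71 ± 0.22 SE (adjusted p = 1.0). H3c2 had 1.59, 2.11 and 3.81 CPM in cKO and 0.474, 1.18 and 3.28 CPM in WT cage tendons (0.57 ± 0.35). H4c11 had a fold change of 1.80 ± 0.92 but no more than 21 counts in any library. The lower values with the smallest p were those of H2ac8 (-0.79 ± 0.73), H3c13 (-0.25 ± 0.32) and H2ac6 (-0.21 ± 0.34), and that of H3c13 was positive, at 0.0731, without WT cage female replicate 1.

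Between cKO and WT runners, 5 of the 52 histone genes had an unadjusted p under 0.05, which 11.3% of all genes had, and that share of histone genes lay below the background. No member was called (0% of all genes). The fold change was positive in 30 of 52, against 51.3% of all genes, with a median of 0.05. Without WT running female replicate 2 the share that was positive was 36.5%, and the median was -0.06. H2ac7, an H2A gene of chromosome 13 (chr13:23574381-23574952, plus strand), was separate between the groups. It had 0.318, 0.484 and 0.940 CPM in cKO runners, against 0, 0 and 0.247 CPM in WT runners, and all cKO libraries lay above all WT libraries. These are 8 to 26 counts in cKO libraries, against 0 to 6 counts in WT libraries, and 67.1% of its 50-base windows recur in other genes. How many of all genes were likewise separate between these groups was not counted, so this may be no more than background. The fold change of H2ac7 was 3.14 ± 0.98 (adjusted p = 0.387), with 1.25 to 3.97 over the alternative fits. Among the genes that share most windows with it, H2ac12 had a fold change of 2.36 ± 1.18, H2ac10 one of 0.86 ± 0.44 and H2ac13 one of 0.31 ± 0.74. H2ac20 had 10.5, 15.4 and 21.1 CPM in cKO runners, against 7.91, 10.6 and 14.2 CPM in WT runners (0.52 ± 0.21, adjusted p = 0.401). The groups overlapped in part. The H1X gene H1f10 had 1.62, 2.73 and 6.55 CPM in cKO runners, against 0.408, 1.81 and 2.54 CPM in WT runners (0.91 ± 0.37). Without cKO running male replicate 2, which had the 6.55 CPM, the fold change was 0.56.

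In the other direction, H2bc4 had 14.6, 28.1 and 35.6 CPM in cKO runners, against 32.2, 35.4 and 42.7 CPM in WT runners. Its fold change was -0.43 ± 0.19 (adjusted p = 0.420), and -0.28 without cKO running male replicate 2, the lowest library. H3c11 had 0.185, 0.828 and 1.07 CPM in cKO runners, against 0.357, 1.62 and 1.93 CPM in WT runners (-0.90 ± 0.42), and H2ac6 had a fold change of -0.69 ± 0.35. Both pairs of groups overlapped. The most abundant linker histones gave estimates near 0 between these groups. H1f0 had 68.2, 71.0 and 82.3 CPM in cKO runners, against 60.4, 72.2 and 82.4 CPM in WT runners (0.01 ± 0.11). H1f2 had 119, 130 and 149 CPM in cKO runners, against 109, 129 and 171 CPM in WT runners (-0.01 ± 0.14). Muscle transcripts were at 4.29 to 13.8% of counts in cKO runners and at 10.2 to 21.3% in WT runners. With a muscle covariate, 1 histone gene had an unadjusted p under 0.05 in place of 5, and with a term for libraries that carry eGFP none had. The share of all genes with an unadjusted p under 0.05 was not counted in these 2 fits. Of all genes, 0 were called in each, as without these terms. Carriage was set at a minimum of 10 CPM of eGFP. All cKO runners met it, at 84.3 to 264 CPM, but among WT runners only male replicate 2 did, at 119 CPM. In cKO cage tendons eGFP ran from 0 to 163 CPM. The eGFP term thus nearly followed genotype among runners, so that fit cannot separate the 2 and no conclusion is drawn from it. The non-polyadenylated RNAs of other families were higher in cKO runners in 14 of 16 tested genes, with a median of 0.41. So were 10 of 10 Schwann cell genes (1.58), 6 of 6 erythroid and bone marrow genes (1.41), 5 of 6 keratinocyte genes (1.98) and 10 of 10 adipocyte genes (0.34), whereas 0 of 35 muscle genes were (-0.64). The keratinocyte genes summed to 118 CPM in cKO running male replicate 2, but to 9.33 to 14.2 CPM in the other cKO runners. In WT runners they summed to 13.9 to 17.0 CPM, so their direction rested on that 1 library.

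Averaged over both activities, 37 of 52 fold changes of cKO against WT were positive, against 50.8% of all genes, with a median of 0.15. None was called, against 0.00522% of all genes, and 3 had an unadjusted p under 0.05, which 3.78% of all genes had. H4c3 had a fold change of 0.40 ± 0.16 and H2ac20 one of 0.30 ± 0.14, each with an adjusted p of 0.981. H2ac7 had 1.62 ± 0.64. All 7 H1 genes were positive, between 0.05 and 0.47, the highest being H1f10. Lower values were those of H2ac6 (-0.45 ± 0.25), H4c9 (-0.37 ± 0.30) and H3c11 (-0.33 ± 0.29). Non-polyadenylated RNAs of other families were positive in 16 of 16 tested genes, with a median of 0.27.

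Markers of some other cell types differed in sign between the activities, with none called. In cage tendons, 0 of 10 Schwann cell genes (median -0.31), 1 of 10 adipocyte genes (-0.07) and 0 of 6 keratinocyte genes (-0.68) were higher in cKO, and 26 of 35 muscle genes were (0.06), each opposite to the sign in runners. Macrophage genes were higher in cKO in 15 of 16 genes in cage tendons (0.19) and in 15 of 16 in runners (0.21). Endothelial genes were higher in 10 of 12 (0.13) and 12 of 12 (0.20) in the same order, and erythroid and bone marrow genes in 5 of 6 (0.32) and 6 of 6. Lymphocyte genes were higher in 2 of 5 and 4 of 5, and tenocyte genes in 4 of 15 and 8 of 15. The erythroid and bone marrow genes, of which 6 of 21 listed had enough counts to test, summed to 52 to 287 CPM in cKO runners and 39.2 to 60.0 CPM in WT runners, and to 11.8 to 444 CPM in cKO cage and 18.1 to 251 CPM in WT cage tendons. Beyond the covariate fits above, the part of these lists in the histone values was not tested.

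**Figure D3:**
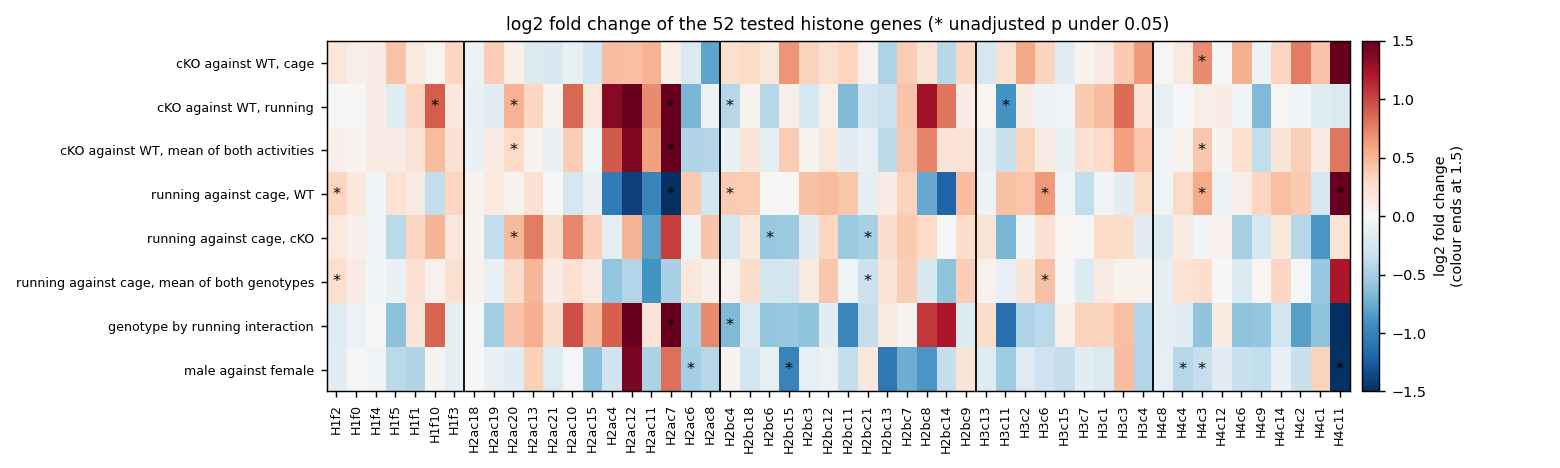
log2 fold change of the 52 tested histone genes (columns, grouped by class and ordered by level) in the 8 comparisons (lines), red where the group named first was higher and blue where it was lower. The scale ends at 1.5, stars mark an unadjusted p under 0.05, and no gene passed an adjusted p of 0.05. The male against female line is blue for 42 of 52 genes.

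Running was compared with cage activity within each genotype. In WT tendons no member was called, against 0.131% of all genes, and 6 had an unadjusted p under 0.05, which 9.74% of all genes had. The fold change was positive in 31 of 52, against 50.4% of all genes, with a median of 0.11. H3c6, which encodes a replication H3, had 1.53, 3.66 and 4.49 CPM in WT runners, against 1.59, 2.12 and 2.94 CPM in WT cage mice. Its fold change was 0.64 ± 0.23 (adjusted p = 0.333), and 1 runner lay below all cage libraries. H1f2 had 109, 129 and 171 CPM in WT runners, against 81.7, 103 and 143 CPM in WT cage mice (0.32 ± 0.13, adjusted p = 0.403). H4c3 had 3.94, 5.47 and 6.69 CPM in WT runners, against 2.46, 3.35 and 5.17 CPM in WT cage mice (0.56 ± 0.22). H2bc4 had 32.2, 35.4 and 42.7 CPM in WT runners, against 15.2, 28.1 and 35.8 CPM in WT cage mice (0.39 ± 0.18). Values of these 4 genes overlapped between the groups. H2ac7 differed the other way (-2.0 ± 0.95), and 4 of the 6 WT runners had no count. H2bc14 had -1.21 ± 0.74, and -0.75 without WT cage male replicate 3. H2ac12 had -1.40 ± 1.05, and WT running male replicate 2 was the only WT runner with a count of it.

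Within cKO tendons, other members had the smallest p. None was called, against 0.0418% of all genes, and 3 had an unadjusted p under 0.05, which 13.6% of all genes had. The fold change was positive in 30 of 52, against 53.9% of all genes, with a median of 0.07. H2bc21, the gene head to head with H2ac20, had 2.09, 3.07 and 3.63 CPM in cKO runners, against 3.58, 4.36 and 4.74 CPM in cKO cage mice. Its fold change was -0.50 ± 0.21 (adjusted p = 0.293), and 5 of 6 runners lay below all cage libraries. H2ac20 on the other side of the shared 238 bases had 10.5, 15.4 and 21.1 CPM in cKO runners, against 6.92, 10.3 and 17.2 CPM in cKO cage mice (0.48 ± 0.21, adjusted p = 0.308). The partners thus had fold changes of opposite sign. H2bc6 had 4.35, 8.04 and 11.5 CPM in cKO runners, against 8.96, 11.1 and 13.2 CPM in cKO cage mice (-0.57 ± 0.25). H4c8 had 8.71, 12.2 and 14.3 CPM in cKO runners, against 11.7, 14.5 and 15.4 CPM in cKO cage mice (-0.21 ± 0.12). The groups of H2bc6 and H4c8 overlapped, and the sign of H4c8 turned on the log2 FPKM scale, at 0.0379 with a pseudocount of 1 and 0.0385 with 0.1. H2ac10 had 0.72 ± 0.44. H1f10 had 0.51 ± 0.37, and 0.16 without cKO running male replicate 2. With a muscle covariate, and likewise with the non-polyadenylated RNA list as a covariate, 0 histone genes had an unadjusted p under 0.05 in place of 3. Of all genes 24 were called with the muscle covariate and 0 with the other, against 8 without either. The share of all genes with an unadjusted p under 0.05 was not counted in these fits, so the drop is not particular to histone genes on this evidence.

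Over both genotypes, running against cage gave 273 called genes, 1.43% of all, and no histone gene among them. Of the 52, 31 were positive, against 52.2% of all genes, with a median of 0.06, and 3 had an unadjusted p under 0.05, which 14.9% of all genes had. H3c6 had the smallest adjusted p at 0.218 (0.43 ± 0.17), followed by H1f2 at 0.238 (0.24 ± 0.10) and H2bc21 at 0.285 (-0.32 ± 0.14). With limma-voom and library weights, H1f2 had a log2 fold change of 0.32 and an adjusted p of 0.0319. That fit called 912 of all genes, against 273 with edgeR, and H1f2 was its only call among the histone genes. Transcripts without a poly(A) tail from other families, such as 7SK and vault RNAs, summed to 31391 to 82911 CPM in cKO runners and 28578 to 43651 CPM in WT runners, against 26399 to 49410 CPM in cKO cage and 26111 to 61287 CPM in WT cage tendons. All 16 tested genes of that list were positive for running over both genotypes, with a median of 0.35 and none called. With that list as a covariate the smallest adjusted p of a histone gene was 0.398. Calls among all genes fell as well, to 31 in place of 273, so the change was not limited to histone genes.

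Muscle, keratinocyte, adipocyte, and erythroid and bone marrow genes differed with running in opposite directions between the genotypes. The medians of the remaining cell type lists had the same sign in both genotypes, and no gene of these lists was called. Muscle genes were higher in runners in 0 of 35 genes in cKO (median -0.51) and in 31 of 35 in WT (0.25). Keratinocyte genes were higher in 6 of 6 in cKO (2.15) and in 1 of 6 in WT (-0.27), and adipocyte genes in 10 of 10 in cKO (0.24) and in 1 of 10 in WT (-0.09). The keratinocyte sum was 118 CPM in cKO running male replicate 2 and 9.33 to 14.2 CPM in the other cKO runners. In cKO cage tendons it was 9.76 to 14.7 CPM, so the cKO value rested on that 1 library. Erythroid and bone marrow genes were higher in 6 of 6 in cKO (0.79) and in 2 of 6 in WT (-0.25). Schwann cell genes were higher in 10 of 10 in cKO (2.10) and in 8 of 10 in WT (0.12), and macrophage genes in 15 of 16 in cKO (0.48) and in 14 of 16 in WT (0.45). Of the lymphocyte genes 4 of 5 were higher in cKO and 3 of 5 in WT, of the endothelial genes 5 of 12 and 1 of 12, and of the tenocyte genes 6 of 15 in each. Beyond the covariate fits above, the part of these lists in the histone values was not tested.

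**Figure D4:**
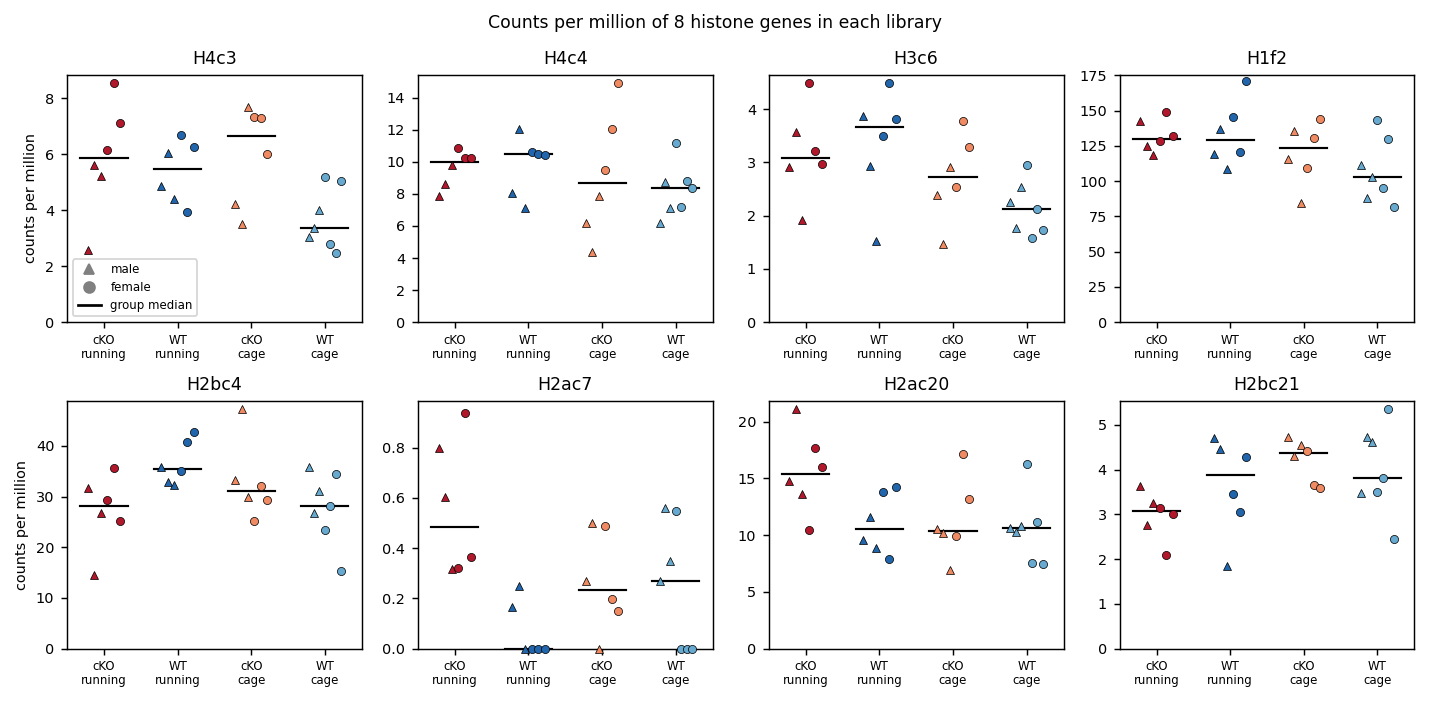
CPM of 8 histone genes in each library, by group. Triangles are male and circles female libraries, and bars are group medians. H2ac7 lies between 0.318 and 0.940 CPM in all cKO runners and at or below 0.247 CPM in WT runners, and the other genes overlap between these 2 groups. The share of all genes that do not overlap was not counted.

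The response to running was then compared between genotypes. No gene was called for this interaction (0% of all genes), and 2 histone genes had an unadjusted p under 0.05, which 7.19% of all genes had. For H2bc4 the running effect was lower in cKO than in WT by 0.66 ± 0.26 on the log2 scale (adjusted p = 0.672). H2ac7 had a difference of 3.04 ± 1.27, H2ac10 one of 0.97 ± 0.62, H3c11 one of -1.13 ± 0.57 and H4c3 one of -0.60 ± 0.32. The signs of single members differed between classes. Of the H4 genes 9 of 10 were negative, with a median of -0.59, whereas 10 of 13 H2A genes were positive, with a median of 0.46. Rare members that share reads count here as much as H2ac18 and H2ac19, which held a mean of 82.6% of the H2A sum. That sum was 116 to 148 CPM in cKO and 110 to 151 CPM in WT runners. In cage tendons it was 98.5 to 154 CPM in cKO and 90.8 to 176 CPM in WT, so the counts do not describe the class as a whole. Over all 52, 23 were positive, against 51.7% of all genes, and the median was -0.15. On log2(FPKM + 0.1) 64.3% were positive. Other lists lay further apart in the same interaction, with 34 of 35 muscle genes negative (median -0.75), and 10 of 10 Schwann cell (1.81), 10 of 10 adipocyte (0.41) and 5 of 6 keratinocyte genes (2.66) positive. The keratinocyte value includes cKO running male replicate 2, with a sum of 118 CPM against 8.61 to 27.9 CPM in all other libraries. The part of these lists in the class values was not tested beyond the covariate fits. The comparisons within genotype share these libraries, so the signs do not add to them.

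Sex entered the fit as a term and gave the most uniform direction. Of the 52 tested histone genes, 42 were lower in male than in female tendons, with a median of -0.20, whereas 49.4% of all genes were higher in males. None was called, against 0.616% of all genes, and 5 had an unadjusted p under 0.05, all lower in males, which 10.1% of all genes had. The share of positive fold changes was 19.2% and stayed between 14.3 and 26.9% over the alternative fits. H4c4 came closest. It had 4.40, 7.85 and 12 CPM in male tendons, against 7.20, 10.4 and 14.9 CPM in female tendons. Its fold change was -0.43 ± 0.12 (adjusted p = 0.147), and the sexes overlapped. H4c3 had 2.59, 4.31 and 7.69 CPM in male tendons, against 2.46, 6.14 and 8.55 CPM in female tendons (-0.35 ± 0.16). H2bc15, a rare H2B transcript, had 0.102, 0.419 and 0.716 CPM in male and 0, 0.701 and 1.97 CPM in female tendons (-1.0 ± 0.42). The higher values with the smallest p were those of H2ac12 (1.41 ± 0.81), H2ac7 (0.83 ± 0.62) and H3c3 (0.46 ± 0.39). That of H2ac12 was 0.72 without WT running male replicate 2. That of H3c3 was 0.30 without WT running female replicate 2 and -0.18 with limma-voom. By class, 9 of 10 H4, 8 of 9 H3, 10 of 13 H2B, 10 of 13 H2A and 5 of 7 H1 genes were lower in males. The non-polyadenylated RNAs of other families were lower in males too, in 16 of 16 tested genes with a median of -0.25. So were 21 of 27 genes of DNA replication and proliferation, with a median of -0.11. Of other cell types, 15 of 16 macrophage (median -0.20), 10 of 10 Schwann cell (-1.31) and 6 of 6 erythroid and bone marrow genes (-1.09) were lower in males. Of 35 muscle genes 25 were higher (0.26), as were 8 of 12 endothelial (0.12), 7 of 10 adipocyte (0.13) and 5 of 6 keratinocyte genes (0.23), and 7 of 15 tenocyte genes (-0.10) and 2 of 5 lymphocyte genes (-0.09) were. The male keratinocyte values include cKO running male replicate 2, with a sum of 118 CPM against 8.61 to 27.9 CPM in all other libraries. The tenocyte gene Tnc was called lower in males. The part of these lists in the histone values was not tested.

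Genes that make and handle histone mRNA gave no call for running over both genotypes. In the list of histone mRNA processing and turnover, 5 of 18 tested genes were positive with a median of -0.05. Casp8ap2, also called FLASH, a factor of histone mRNA 3′ processing, had a fold change of -0.32 ± 0.12 (adjusted p = 0.215). Lsm11, a protein of the U7 particle that cleaves the mRNA, had 0.20 ± 0.10 (adjusted p = 0.335). In the list of histone gene transcription, 7 of 13 were positive with a median of 0.01. Nfyb, a subunit of NF-Y, had -0.28 ± 0.09 (adjusted p = 0.101), and Npat, the S-phase coactivator of histone genes, had -0.20 ± 0.09 (adjusted p = 0.259). Of 23 histone chaperones 6 were positive, with a median of -0.09, and Nap1l1, a chaperone of H2A and H2B, had -0.26 ± 0.09 (adjusted p = 0.156). Of 11 histone genes outside the pattern 6 were positive, with a median of 0.05. Of 27 genes of DNA replication and proliferation 11 were positive, with a median of -0.05, although Mcm6, a subunit of the replicative helicase, had 0.26 ± 0.09 (adjusted p = 0.142) and Rrm2, a subunit of ribonucleotide reductase, 0.61 ± 0.23 (adjusted p = 0.216). For cKO against WT over both activities, 10 of 18 processing, 4 of 13 transcription, 12 of 23 chaperone and 19 of 27 replication genes were positive, and none was called.

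Libraries differed in how many histone genes they held at high level. For each of the 52 tested genes a library was counted as high when it lay above that gene's own median over the 25 libraries. The count was 18, 19 and 21 genes in cKO male libraries, against 30, 35 and 46 in cKO female libraries, and the sexes did not overlap in cKO tendons. In WT tendons it was 17, 22.5 and 30 in male libraries, against 10, 17 and 40 in female libraries. The lowest count was in WT running female replicate 2, which had counts for 40 of the 61 members, and the highest in cKO cage female replicate 2. Of all genes, 20006 were detected in that lowest library, against 23266 to 26098 in cKO male and 24232 to 28692 in cKO female libraries. Near-identical members share reads, so they do not count independently. The same count was not made over all 19155 tested genes, so whether the difference is particular to histone genes was not tested.

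**Figure D5:**
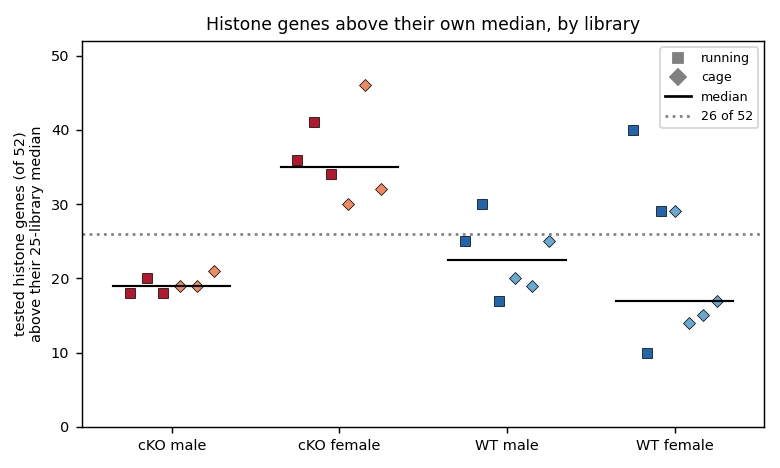
Number of the 52 tested histone genes that lay above their own 25-library median in each library, by genotype and sex. Squares are runners, diamonds cage mice, bars medians, and the dotted line marks 26 genes. All 6 cKO male libraries lie at 18 to 21 genes and all 6 cKO female libraries at 30 to 46.

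A fit with a sex term for each genotype was added after seeing the data. In cKO tendons, 46 of 52 histone genes were lower in male than in female libraries, against 50.9% of all genes, with a median log2 fold change of -0.49. None was called by edgeR's quasi-likelihood test (0.282% of all genes were). An unadjusted p under 0.05 was found for 9, all lower in males, and for 9.07% of all genes. In WT tendons 24 of 52 were lower in males, against 50.2% of all genes, and the median was 0.02. None was called (0.12% of all genes were), and 1 had an unadjusted p under 0.05, against 4.61% of all genes. H1f5, a linker histone of dividing cells, chosen here after its values were seen, had 1.32 to 2.05 CPM in cKO male libraries, against 1.91 to 5.16 CPM in cKO female libraries (-1.07 ± 0.27, adjusted p = 0.0990). H4c4 in cKO runners had 7.85 to 9.80 CPM in males, against 10.2 to 10.9 CPM in females, and in cKO cage mice 4.40 to 7.84 CPM in males, against 9.49 to 14.9 CPM in females (-0.62 ± 0.17, adjusted p = 0.149).

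The difference between the genotypes was negative in 47 of 52 histone genes, against 50.6% of all genes, with a median of -0.51. No gene of all 19155 was called for it (0%), and 5 histone genes had an unadjusted p under 0.05, against 3.74% of all genes. The smallest adjusted p of a histone gene was 0.999. Lists of other genes also lay apart between the sexes in cKO tendons. Of 27 genes of DNA replication and proliferation 26 were lower in males (median -0.28), as were 15 of 16 macrophage genes (median -0.50), 14 of 16 non-polyadenylated RNAs of other families (median -0.38), and 10 of 10 Schwann cell genes (median -1.38), while 21 of 35 muscle genes were higher (median 0.19). Of the tenocyte genes 13 of 15 were lower in males (median -0.35) and 1 was called, and of the erythroid and bone marrow genes 5 of 6 were lower (-1.51). Adipocyte genes were higher in males in 10 of 10 (0.54). For the difference between the genotypes, 15 of 15 tenocyte genes were negative (-0.64), as were 16 of 16 macrophage (-0.49) and 24 of 27 replication genes (-0.26), and 10 of 10 adipocyte genes were positive (0.76). Their part in the histone values was not tested.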

How the data were processed

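Per the labels' protocols, total RNA came from pulverised Achilles tendon, with DNase on the column. The submitters' processing notes name cutadapt 2.3, FastQC 0.11.8, STAR 2.7.8a, RSEM 1.3.3 and the GRCm38 (mm10) genome, with no role for each. The annotation release and the strand are not given in the sources used here. The deposited expected counts are whole numbers and were used as such; 4 reporter entries were left out of the tests. The deposited FPKM values were used for levels per length. CPM are counts scaled to the TMM-adjusted size of a library, except those of eGFP, which are scaled to its unadjusted total. RSEM divides reads between near-identical copies, so single copies are less certain than sums.

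Genes were filtered with filterByExpr on the 4 groups, scaled by TMM and fitted with edgeR 4.0.16 (R 4.3.3), with group means and a sex term. SE is the fold change divided by the root of F. Recovery of known changes was tested on simulated data. Positions, transcripts and 50-base windows came from a GENCODE annotation of GRCm38, matched by gene ID, and promoters from RefSeq. Alternatives used DESeq2 1.42.0, limma 3.58.1, other scalings, filters, covariates and left-out libraries. Named were the 3 members with the highest FPKM per class, the 3 with the smallest p in each direction per comparison, H1f0 and H1f10, and up to 2 genes per list. Members and lists were chosen with earlier results of these data known. Lists of other cell types were used for description, and the muscle list also as a covariate in an alternative fit.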

Additional observations from a re-analysis of the deposited data

Results flagged for a closer look

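In groups of 6 or 7 libraries, 1 library stood apart from the rest in 13 of 132 groups examined, over 28 named members and 5 class sums. The rule sets apart about 1 in 20 groups when values are normal and groups independent. Here several values lie near 0 and class sums hold their own members, so that rate is no test of the 13. In cKO runners, H1f0 had 82.3 CPM in female replicate 4, with 68.2 to 73.3 CPM in the others. H1f10 had 6.55 CPM in cKO running male replicate 2, with 1.62 to 3.19 CPM in the others, and H2ac18 had 108.5 CPM in male replicate 1, with 68.0 to 82.0 CPM in the others. H2bc15 had 1.97 CPM in cKO running female replicate 2, with 0.208 to 0.598 CPM in the others. In WT runners, H1f4 had 23.6 CPM in female replicate 2, with 40.7 to 47.2 CPM in the others, and H2ac12 had 1.53 CPM in male replicate 2 and no count in the others.

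In cKO cage mice, male replicate 2 had 47.3 CPM of H2bc4, with 25.2 to 33.2 CPM in the others, and a summed H2B level of 73.4 CPM, with 52.3 to 60.0 CPM in the others. H3c11 had 1.92 CPM in cKO cage female replicate 3, with 0.888 to 1.17 CPM in the others. WT cage female replicate 1, the deepest library, stood apart in 3 genes. It had 3.83 CPM of H1f10, with 1.56 to 2.24 CPM in the others, 16.2 CPM of H2ac20, with 7.42 to 11.1 CPM, and 8.82 CPM of H3c13, with 1.82 to 4.78 CPM. H4c11 had 0.258 CPM in WT cage female replicate 2, with 0 to 0.0790 CPM in the others.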

How the results depend on the processing

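The number of histone genes called was 0 in each of the 8 comparisons under all alternatives run, including the fits that left out 1 library each (0 to 0), with 1 exception. Limma-voom with library weights called 1 histone gene for running over both genotypes, H1f2 at 0.32 (adjusted p = 0.0319). The range of its log2 fold change over the alternatives was 0.17 to 0.40. Of 48 fold changes of single members, the sign turned for H3c3 in male against female with limma-voom (-0.18), for H4c8 in running against cage, cKO, on log2(FPKM + 1) and log2(FPKM + 0.1) (0.0379 and 0.0385), and for H3c13 in cKO against WT, cage, without WT cage female replicate 1 (0.0731; fits that left out 1 library each gave -0.37 to 0.0731, and all libraries -0.25). The cause was not tested. Counts of all genes moved more: cKO against WT gave 0 calls in cage mice (0 to 4 over the alternatives), 0 in runners (0 to 282) and 1 over both (0 to 91). Running against cage gave 25 in WT (6 to 295), 8 in cKO (0 to 574) and 273 over both genotypes (11 with an eGFP term to 912 with limma-voom). The interaction gave 0 (0 to 65) and male against female 118 (35 to 445). The share of positive histone fold changes was least stable for cKO against WT in runners, 57.7% with 32.7% under a proliferation covariate and 80.4% on log2(FPKM + 0.1) (36.5 to 66.0% with 1 library left out), and for the interaction, 44.2% with 33.3 to 64.3%. Replicate numbers showed no visible pairing of the libraries. Over 34 pairs with the same number, correlations of deviations from group means ran from -0.20 to 0.21 with a median of -0.01. Over 83 pairs with other numbers they ran from -0.22 to 0.24 with a median of 0.01. The groups were small, so a weak pairing could not be seen. A replicate block left the histone calls at 0. Sex could not be tested in the block or without the sex term. Levels are given in both CPM and FPKM. Rare members, with few counts in most libraries, allow only large differences to be seen.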
